A study of Mus musculus with 4 samples.

Results

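Microtubule motors, tubulins and neurofilaments were examined in RNA bound to the tagged ribosomes of midbrain dopamine neurons. The genes were chosen by symbol: kinesin heavy chains (Kif), kinesin light chains (Klc), dynein subunits (Dync, Dynl), dynactin subunits (Dctn), alpha, beta and gamma tubulins, the microtubule-associated proteins Map1a, Map1b, Map2, Map4, Map6 and Mapt, the stathmins and the 3 neurofilament genes. This gave 91 of the 18193 genes that have a probe set with 1 gene symbol, and each gene was read on its brightest probe set over the 4 arrays. TRAP (translating ribosome affinity purification) pulls down ribosomes that carry eGFP/RPL10A, together with the mRNA on them, and was set against input RNA of the same kind of midbrain dissection. TRAP RNA was measured on 2 arrays (replicates 2 and 4) and input RNA on 2 arrays (replicates 1 and 2), each from a pool of 5 mice of both sexes aged 6 to 12 weeks. The sample labels call the input fraction unbound RNA. All 4 samples came from the Slc6a3 JD1640 TRAP line, in which a BAC with the dopamine transporter gene Slc6a3 drives the transgene. The line began in FVB eggs, was bred to C57BL6/j mice, and carries its transgene in the heterozygous state, in TRAP and input samples alike.

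Microtubules are hollow polymers of alpha and beta tubulin that run the length of axons and dendrites, and gamma tubulin seeds new ones. Kinesins mostly walk toward the growing plus end and carry vesicles, mitochondria and mRNA away from the cell body, while cytoplasmic dynein, with dynactin as its activator, carries cargo back. Microtubule-associated proteins such as tau bind along the polymer, stathmins bind free tubulin, and neurofilaments set the caliber of large axons. Midbrain dopamine neurons have very long and highly branched axons, which is why their transport machinery is of interest.

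Levels are given in arbitrary expression units, which are 2 raised to the deposited log2 values, in the order replicates 2 and 4 for TRAP and replicates 1 and 2 for input. The arrays had medians of 7.28 and 7.13 units in TRAP and 10.2 and 10.1 units in input, and 35.2% to 35.8% of the probe sets of each array were at 50 units or more. A gene was taken as above background where its mean log2 value over the 4 arrays corresponded to 50 units or more. Of 10 dopamine neuron markers, 9 were above background and all 9 rose, with a summed level of the 10 genes of 111286 and 141791 units in TRAP, against 11020 and 10369 in input. The summed level of 9 oligodendrocyte markers was 74378 units in the first TRAP pool (replicate 2) and 33455 in the other (replicate 4), against 85019 and 94628 in input. For 10 astrocyte markers it was 25689 and 14653 in TRAP, against 43021 and 49511 in input. For 6 GABAergic neuron markers it was 9101 and 3738 in TRAP, against 16432 and 9394 in input. TRAP replicate 2 therefore held more RNA of glial and GABAergic marker genes than TRAP replicate 4. Of 9 microglia markers 3 were above background, and of 5 endothelial and ependymal markers 0.

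Of the 91 genes, 63 were above background and 28 were below it, 27 of them under 50 units on all 4 arrays. Among the 63, 15 rose in TRAP (23.8%), against 17.7% of the 9507 genes above background, and 3 fell (4.76%), against 5.34% (limma, adjusted p under 0.05 over 45037 probe sets). The 15 were Kif3b, Kif26b, Klc1, Klc4, Dynlrb1, Dynlt1f, Dctn2, Dctn3, Dctn5, Tuba1a, Tubb2a, Tubg1, Tubg2, Stmn1 and Stmn3, and the 3 were Kif13a, Kif13b and Dync1h1. Both TRAP arrays lay above both input arrays in 37 of the 63 (58.7%), against 52.4% of all genes above background, and below both in 9 (14.3%), against 22.0%. Log2 fold changes are TRAP over input and are given ± their standard error where the error is stated. The median log2 fold change of the 63 genes was 0.59, beside 0.44 for all genes above background. The median of 0.44 means that most bright probe sets had higher values in TRAP on the deposited scale. When each array was centred on its bright probe sets, this median became 0.03, that of the 63 genes 0.18, and 14 of them rose and 8 fell, so that 63.6% of the calls were rises, against 83.3% on the deposited values. For all genes above background the share of rises among the calls was 50.9% after centring and 76.8% on the deposited values. The centred counts are 22.2% and 12.7% of the 63 genes, against 20.3% and 19.5% of all genes above background. Calls gained by centring were Dync2li1, Dynll2, Tubb3 and Tubb4b as rises and Kif1c, Kif21b, Kif3a, Kif5a and Kif5b as falls. Quantile normalization gave 11 rises (17.5%, against 10.8% of all genes above background) and 5 falls (7.94%, against 8.93%), so that 68.8% of the calls were rises, against 54.7% for all genes. With no filter on low values 22 of the 91 rose and 13 fell, against 19.8% and 19.0% of all 18193 genes, and these counts hold calls made at the floor of the arrays. In a bulk fraction, fewer cells of a type and less RNA per cell cannot be told apart.

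The calls rest on few arrays. Fewer genes rose with any 1 array left out, among the 63 and among all genes above background alike. The median log2 fold change of the 63 was 0.65 without TRAP replicate 2 and 0.50 without TRAP replicate 4, beside 0.46 and 0.43 for all genes above background. It was 0.59 without input replicate 1 and 0.58 without input replicate 2, beside 0.44 and 0.41. In each of these fits 1 fraction has a single array, which is assumed to vary like the other fraction. Klc1, Dctn2, Tubg2 and Kif13a passed with any 1 of the 4 arrays left out. When values under 50 units were raised to 50, Klc4 (adjusted p = 0.0870), Tuba1a (0.146), Dync1h1 (0.153), Dctn3 (0.0961), Dctn5 (0.147), Kif26b (0.131), Kif3b (0.0829), Tubg1 (0.0701) and Stmn1 (0.0929) did not pass limma. When only probe sets above background were fitted, Stmn3 (0.0990), Stmn1 (0.330), Klc1 (0.0882), Tuba1a (0.0703), Tubb2a (0.0550), Dctn5 (0.0656) and Kif3b (0.143) did not pass. In that fit 11 of the 63 rose, which at 17.5% was below the 20.5% of all genes above background. Falls there numbered 5 (7.94%, against 6.95%). Replicates of a fraction are separate pools of mice, and a p-value here measures how far the fractions lie apart relative to how far pools of 1 fraction differ. The paper collected parallel input from each replicate. TRAP replicate 2 and input replicate 2 may therefore share a pool, which the unpaired fit does not take into account.

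**Figure D1:**
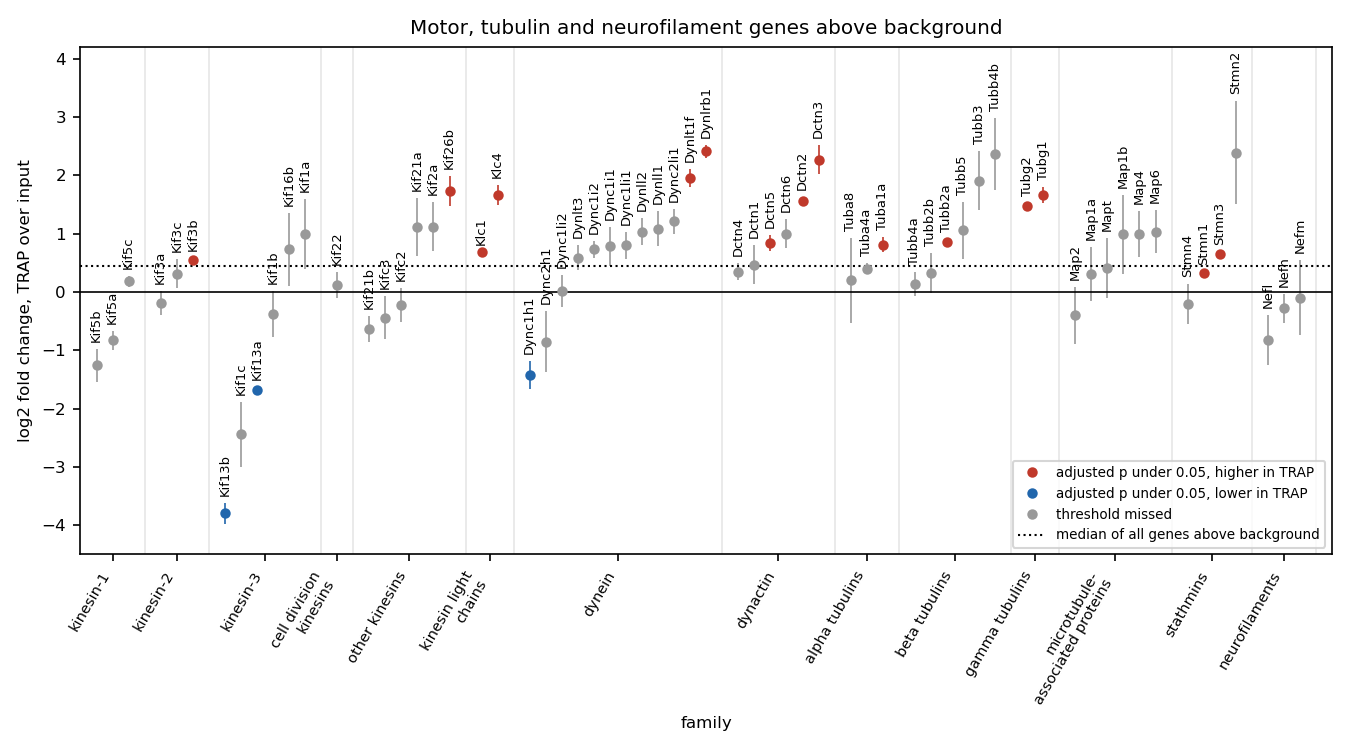
TRAP over input as log2 fold change (points, limma) with its standard error (bars) for the 63 genes above background, by family. The dotted line is the median of all genes above background at 0.44; the gamma tubulins and kinesin light chains lie above it, and 4 of the 6 kinesin-3 genes lie below 0.

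Kinesin heavy chains were spread over both directions. Of 41 on the array, 19 were above background, with a median log2 fold change of -0.19. Of these 2 rose (10.5%, against 17.7% of all genes above background) and 2 fell (10.5%, against 5.34%). Kinesins that carry cargo along axons (kinesin-1, kinesin-2 and kinesin-3) made up 12 of the 19, with a median of -0.29, 1 rise (8.33%) and 2 falls (16.7%). The shares to set beside each family count below are again those of all genes above background, 17.7% for rises and 5.34% for falls.

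Kinesin-1 is the main anterograde motor of axons, and its heavy chains come from 3 genes. Kif5a, the neuron-specific form, was at 7604 and 7616 units on the TRAP arrays, against 12059 and 15244 units on the input arrays. Kif5b, the form made in all cells, was at 1457 and 2143 units in TRAP, against 3809 and 4672 in input. Kif5c, again a neuronal form, was at 15901 and 18055 units in TRAP, against 14852 and 14985 in input. Both TRAP arrays of Kif5a and Kif5b thus lay below both input arrays, and those of Kif5c slightly above. Kif5a had a log2 fold change of -0.83 ± 0.16 (limma adjusted p = 0.0531) and Kif5b of -1.26 (± 0.29, limma adjusted p = 0.0759), so that 0 of the 3 genes passed, although both of these had an unadjusted limma p under 0.05. Kif5a and Kif5b passed after centring on bright probe sets (Kif5a -1.24, adjusted p = 0.0161, and Kif5b -1.66, adjusted p = 0.0175). Both were also called as falls after quantile normalization and with an intensity trend, but not with values under 50 units raised to 50. Only Kif5b passed in the fit of probe sets above background alone, and only Kif5a when all probe sets of a gene were averaged. Kif5a also passed without input replicate 1 (0.001) or input replicate 2 (0.00157), where the spread comes from its nearly equal TRAP arrays alone, and did not pass without TRAP replicate 2 (0.214) or TRAP replicate 4 (0.219). For Kif5c the log2 fold change was 0.18 (95% interval -0.14 to 0.51, adjusted p = 0.192), and it became -0.23 after centring. All 5 probe sets of Kif5b above background were lower in TRAP, with log2 fold changes from -1.26 to -0.48, and none of them passed.

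Kinesin light chains join kinesin-1 to its cargo, and both that were above background rose. Klc1, the light chain most used in neurons, was at 34359 and 34737 units in TRAP, against 21558 and 21527 in input. Within a fraction its arrays nearly coincided, and it rose by a log2 fold change of 0.68 ± 0.01 (limma adjusted p = 0.000242), or 1.60-fold. After centring the adjusted p of Klc1 was 0.0524. Klc4 was at 443 and 572 units in TRAP, against 160 units on each input array, and rose 3.15-fold (log2 fold change 1.66 ± 0.17, limma adjusted p = 0.0183). Without input replicate 1 or 2 Klc4 missed the threshold (adjusted p = 0.116 and 0.118). Klc3 was below background. A second, dimmer probe set of Klc1 ran the other way, at 51.9 and 48.2 units in TRAP, against 107 and 124 in input (log2 fold change -1.20, adjusted p = 0.0139).

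Kinesin-2 motors work as pairs of Kif3a with Kif3b or Kif3c and carry vesicles in axons and cargo in cilia. Kif3a was at 821 and 1129 units in TRAP, against 1113 and 1082 in input, and Kif3c at 2858 and 3969 in TRAP, against 2962 and 2509 in input. In both genes the fractions overlapped, with log2 fold changes on the deposited scale of -0.19 (95% interval -1.0 to 0.62) and 0.31 (95% interval -0.63 to 1.24). After centring Kif3a passed at -0.60 (adjusted p = 0.0453) and Kif3c turned to -0.10. Kif3b was near background, at 68.9 and 64.8 units in TRAP, against 45.9 units on each input array, and rose at least 1.34-fold against 50 units (adjusted p = 0.0104). It missed the threshold after centring (adjusted p = 0.297) and without input replicate 1 (0.0858) or input replicate 2 (0.0873). Kif17, a motor of dendritic transport, was below background.

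Kinesin-3 motors move vesicles, endosomes and mitochondria over long distances, and their 6 genes had a median log2 fold change of -1.03, below that of the other families except without TRAP replicate 2 (-0.82, against -0.83 for kinesin-1). Kif13b, which binds scaffold and phosphoinositide-bearing cargo, was at 26.7 and 24.4 units in TRAP, against 311 and 403 in input. With both TRAP arrays under 50 units, it fell at least 7.08-fold (limma adjusted p = 0.00437). Kif13a, a motor of recycling endosomes, was at 157 and 156 units in TRAP, against 518 and 483 in input, and fell by 1.68 on the log2 scale (± 0.05, limma adjusted p = 0.00146), and its 2 other probe sets above background, at -1.53 and -2.0, did not pass. Kif13b no longer passed without TRAP replicate 2 (adjusted p = 0.0654) or TRAP replicate 4 (0.0688).

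Kif1c, a motor made in many tissues, was at 267 and 121 units in TRAP, against 848 and 1116 in input, a log2 fold change of -2.44 that missed the threshold (± 0.56, limma adjusted p = 0.0744) and passed after centring (-2.85, adjusted p = 0.0217), in the fit of probe sets above background alone (0.0258) and with an intensity trend (0.0407). It was higher on TRAP replicate 2, as were the glial markers, whose part in the value was not tested. Kif1b, which carries mitochondria and synaptic vesicle precursors, was at 4729 and 8500 units in TRAP, against 7739 and 8824 in input. Its fractions overlapped (log2 fold change -0.38 ± 0.40, limma adjusted p = 0.478). Kif1a, the motor of synaptic vesicle precursors, was dim on its probe set, at 74.5 and 151 units in TRAP, against 40.7 and 70.5 in input (log2 fold change 0.99, 95% interval -1.28 to 3.25, adjusted p = 0.275). Kif16b, a motor of early endosomes, overlapped too, at 112 and 154 units in TRAP, against 123 and 50.8 in input.

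Among the other kinesins, Kif26b, a kinesin known from development and cell adhesion, was at 245 and 310 units in TRAP, against 71.5 and 95.7 in input, and rose 3.33-fold (log2 fold change 1.73 ± 0.25, limma adjusted p = 0.0337). It missed the threshold with any 1 array left out (adjusted p from 0.0929 to 0.148) and after quantile normalization (0.0518). Kif21a, a plus-end motor that slows microtubule growth, was at 2383 and 3473 units in TRAP, against 1838 and 960 in input (log2 fold change 1.11, adjusted p = 0.185). Kif2a, which takes microtubules apart at their ends, was at 2270 and 2015 units in TRAP, against 1340 and 720 in input (adjusted p = 0.142). Kifc2, a neuronal motor directed to the minus end, was at 3089 and 3058 units in TRAP, against 2902 and 4459 in input (adjusted p = 0.549).

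The 13 kinesins of cell division were mostly dim, and 12 of them were below background. The exception was Kif22, a chromosome-binding kinesin, at 832 and 670 units in TRAP, against 610 and 773 in input (log2 fold change 0.12, 95% interval -0.69 to 0.94, limma adjusted p = 0.664), which became -0.29 after centring. This level rests on 1 probe set, of the kind whose probes can match several related transcripts. The other Kif22 probe sets were below background. One was at 5.44 and 5.38 units in TRAP, against 6.72 and 8.68 in input. Another was at 4.77 units on each TRAP array, against 6.77 on each input array.

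**Figure D2:**
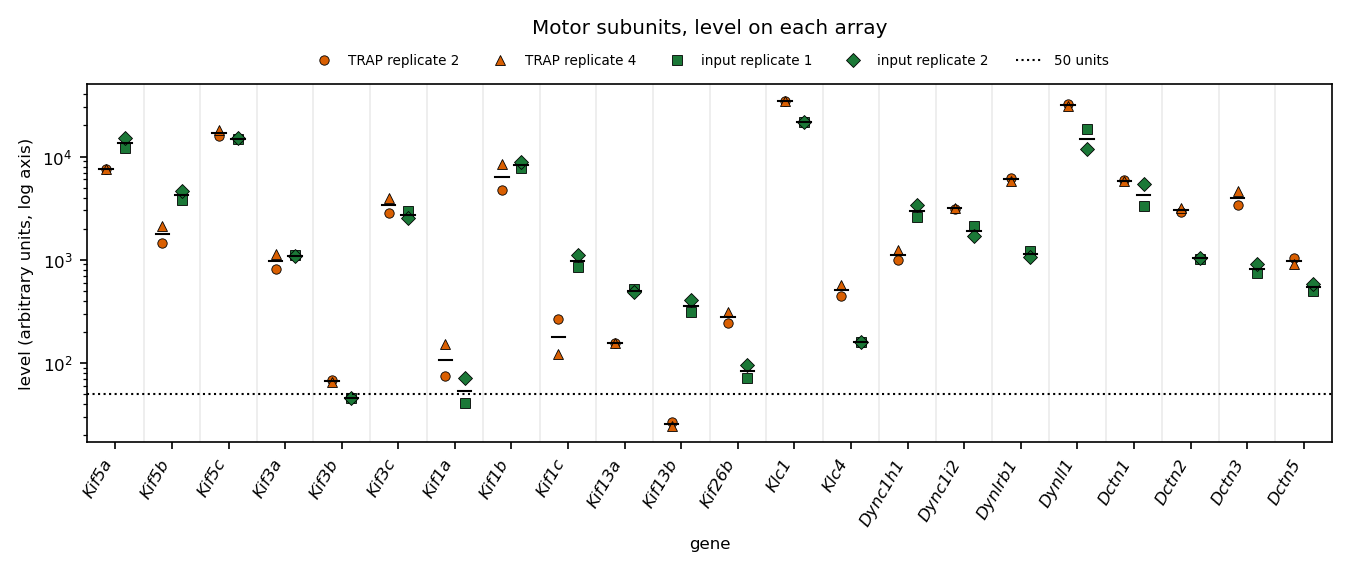
Level in arbitrary expression units (log axis) of 22 motor subunits on each TRAP array (left of each gene) and each input array (right), with short lines at the geometric mean of 2 arrays and a dotted line at 50 units. The TRAP arrays of Kif13b lie at 26.7 and 24.4 units, under the dotted line, and those of Dynlrb1 at 6200 and 5842, above its input arrays at 1222 and 1051.

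Dynein and dynactin mostly had higher values in TRAP, with the heavy chains Dync1h1 and Dync2h1 as exceptions. Of 18 genes above background, 16 had a positive log2 fold change (88.9%, against 66.7% of all genes above background). The median was 0.82, beside 0.44 for all genes above background. Among the 18, 5 rose (27.8%, against 17.7%) and 1 fell (5.56%, against 5.34%). The 6 dynactin genes all lay above input on both TRAP arrays, as did 52.4% of all genes above background. However, Dctn1 turned to -0.06 after quantile normalization, and Dctn4 to -0.17 after quantile normalization and -0.06 after centring.

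Dync1h1, the heavy chain that holds the motor domain of cytoplasmic dynein, was at 985 and 1241 units in TRAP, against 2615 and 3417 in input. Its log2 fold change was -1.43 (± 0.24, limma adjusted p = 0.0423), a 2.70-fold fall. It missed the threshold with any 1 array left out (adjusted p from 0.107 to 0.164). The intermediate chains, which bind dynactin, pointed up without passing. Dync1i1 was at 1927 and 2357 units in TRAP, against 1554 and 990 in input (adjusted p = 0.168), and Dync1i2 at 3118 and 3171 in TRAP, against 2098 and 1708 in input (log2 fold change 0.73, adjusted p = 0.0533). Of the light intermediate chains, which hold cargo adaptors, Dync1li1 was at 114 and 155 units in TRAP, against 70.7 and 82.6 in input (adjusted p = 0.094). Dync1li2 was at 1394 and 2064 in TRAP, against 1583 and 1779 in input (log2 fold change 0.02, or -0.39 after centring, adjusted p = 0.966). A dimmer Dync1li2 probe set rose, at 771 and 720 units in TRAP, against 434 and 448 in input. Its log2 fold change was 0.76 (limma adjusted p = 0.0083).

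Dynein light chains are small proteins that sit at the base of the motor, and several also work in other complexes. Dynlrb1, the roadblock light chain, was at 6200 and 5842 units in TRAP, against 1222 and 1051 in input, and rose 5.31-fold (log2 fold change 2.41 ± 0.11, limma adjusted p = 0.00379). Without TRAP replicate 2 or TRAP replicate 4 it missed the threshold (adjusted p = 0.0622 and 0.0609). Dynll1 was at 32237 and 30688 units in TRAP, against 18626 and 11865 in input (log2 fold change 1.08, adjusted p = 0.0882). Dynll2 was at 21522 and 26003 units in TRAP, against 13346 and 10069 in input (log2 fold change 1.03, adjusted p = 0.0695). In both genes the fractions did not overlap, and the input arrays differed more from each other than the TRAP arrays did.

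Dynlt1f, a Tctex-type light chain, was at 178 and 156 units in TRAP, with both input arrays below background at 47.3 and 39.6, and rose at least 3.33-fold (limma adjusted p = 0.0102). It no longer passed without TRAP replicate 2 (adjusted p = 0.0932), TRAP replicate 4 (0.0866) or input replicate 2 (0.0529). The mouse genome holds near-identical copies of this gene, so its value may include theirs. Dynlt3 was at 17221 and 18203 units in TRAP, against 13793 and 10096 in input (log2 fold change 0.59, adjusted p = 0.133). A dimmer Dynlt3 probe set rose, at 328 and 446 units in TRAP, against 71.3 and 54.1 in input. Its log2 fold change was 2.62 (limma adjusted p = 0.019), and the others above background, at 1.43 and 0.64, did not pass. The motor of cilia, dynein-2, was split, with its heavy chain Dync2h1 at 27.5 and 54.7 units in TRAP, against 57.6 and 84.3 in input, and its light intermediate chain Dync2li1 at 294 and 310 in TRAP, against 154 and 111 in input (adjusted p = 0.283 and 0.051).

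Dynactin is the complex that switches dynein on and links it to cargo. Dctn2, the p50 subunit also called dynamitin, was at 2893 and 3189 units in TRAP, against 1016 and 1039 in input, and rose 2.96-fold (log2 fold change 1.56 ± 0.07, limma adjusted p = 0.00343). Dctn3, its partner in the shoulder of the complex, was at 3356 and 4625 units in TRAP, against 737 and 902 in input, and rose 4.83-fold (log2 fold change 2.27 ± 0.25, limma adjusted p = 0.0212). Dctn5, at the pointed end, was at 1040 and 901 units in TRAP, against 502 and 578 in input, and rose 1.80-fold (log2 fold change 0.84 ± 0.14, limma adjusted p = 0.0401). In these 3 genes both TRAP arrays were clear of both input arrays. Dctn3 and Dctn5 missed the threshold with any 1 array left out (adjusted p from 0.0784 to 0.114 and from 0.117 to 0.148), and Dctn5 also after centring (0.0893) and quantile normalization (0.191).

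Dctn1, the large subunit that binds the microtubule and the intermediate chains, was at 5959 and 5741 units in TRAP, against 3310 and 5382 in input (log2 fold change 0.47, 95% interval -0.77 to 1.71, limma adjusted p = 0.322). Dctn6 was at 9238 and 8555 units in TRAP, against 5329 and 3686 in input (log2 fold change 1.0, adjusted p = 0.0852). Dctn4 was at 2092 and 2482 units in TRAP, against 1688 and 1887 in input (log2 fold change 0.35, adjusted p = 0.147). The log2 fold change of Dctn4 lies below the median of all genes above background, and that of Dctn1 is almost equal to it.

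All 11 tubulins above background had a positive log2 fold change on the deposited values, as did 66.7% of all genes above background. Their values ran from 0.14 to 2.36 with a median of 0.86, and 4 rose (36.4%, against 17.7% of all genes). After centring Tuba4a (-0.01), Tuba8 (-0.20), Tubb2b (-0.08) and Tubb4a (-0.27) were below 0. Of the alpha tubulins, Tuba1a, the main form of neurons, was at 33398 and 33928 units in TRAP, against 21082 and 17386 in input. It rose 1.76-fold (log2 fold change 0.81 ± 0.13, limma adjusted p = 0.0398), on a probe set of the kind whose probes can match several related transcripts. Tuba1a no longer passed without TRAP replicate 2 (adjusted p = 0.180) or TRAP replicate 4 (0.189) and after quantile normalization (0.132). Tuba4a, an alpha tubulin of mature brain, was at 19106 and 18408 units in TRAP, against 13250 and 15317 in input (log2 fold change 0.40, adjusted p = 0.0852). After centring the value for this Tuba4a probe set was -0.01. A second, dimmer Tuba4a probe set was at 4241 and 6823 units in TRAP, against 1531 and 2178 in input. Its log2 fold change of 1.56 also missed the threshold (limma adjusted p = 0.0852). Tuba8 was dim and varied within both fractions, at 124 and 56.9 units in TRAP, against 107 and 49.7 in input.

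Among beta tubulins, which differ mainly in their C-terminal tails, Tubb2a, a major neuronal form, was at 25540 and 27695 units in TRAP, against 14654 and 14603 in input. It rose 1.82-fold (log2 fold change 0.86 ± 0.05, limma adjusted p = 0.00727), and missed the threshold without input replicate 1 (adjusted p = 0.0705) or input replicate 2 (0.0721). This probe set is of the kind whose probes can match several related transcripts. A second, dimmer Tubb2a probe set overlapped, at 277 and 150 units in TRAP, against 140 and 267 in input. Its log2 fold change was 0.08 (limma adjusted p = 0.921). Tubb2b, a close relative of Tubb2a, was at 6687 and 7579 units in TRAP, against 4418 and 7279 in input. The fractions of Tubb2b overlapped (log2 fold change 0.33, 95% interval -0.98 to 1.63, limma adjusted p = 0.478).

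Tubb3, the beta tubulin used as a marker of neurons, was at 4320 and 7972 units in TRAP, against 1242 and 1959 in input. Its log2 fold change of 1.91 missed the threshold (± 0.51, limma adjusted p = 0.0852), and passed after centring (1.5, adjusted p = 0.0452), while quantile normalization gave an adjusted p of 0.158. Tubb4b, a form found in most cells and in cilia, was at 1495 and 3706 units in TRAP, against 426 and 492 in input (log2 fold change 2.36 ± 0.62, limma adjusted p = 0.0852). In both genes the fractions were far apart, but the TRAP arrays differed from each other, with replicate 4 the higher. Tubb5 was at 5119 and 6606 units in TRAP, against 1977 and 3944 in input (log2 fold change 1.06, adjusted p = 0.193). Tubb4a, a form rich in oligodendrocytes as well as neurons, was at 1160 and 868 units in TRAP, against 864 and 958 in input (log2 fold change 0.14, 95% interval -0.64 to 0.92, adjusted p = 0.598), which became -0.27 after centring.

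Both gamma tubulins, which form the ring that starts a microtubule, rose. Tubg1 was at 653 and 571 units in TRAP, against 179 and 210 in input, and rose 3.15-fold (log2 fold change 1.66 ± 0.14, limma adjusted p = 0.0128). Tubg2, the form more typical of brain, was at 366 and 389 units in TRAP, against 133 and 140 in input, and rose 2.77-fold (log2 fold change 1.47 ± 0.05, limma adjusted p = 0.00247). Tubg1 missed the threshold with any 1 array left out (adjusted p from 0.0571 to 0.100). Both passed after centring, at 1.25 for Tubg1 and 1.06 for Tubg2.

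On their brightest probe sets, all 6 microtubule-associated proteins were above background and 0 passed, nor did any at an unadjusted p under 0.05 from limma. Mapt, which encodes tau, was at 8727 and 13298 units in TRAP, against 5835 and 11219 in input (log2 fold change 0.41, 95% interval -1.56 to 2.38, adjusted p = 0.547). Map2, the protein of dendrites and cell bodies, was at 3659 and 5504 units in TRAP, against 8043 and 4353 in input (log2 fold change -0.40, 95% interval -2.27 to 1.47, adjusted p = 0.540). For both genes the input arrays were further apart than the means of the fractions, and after quantile normalization Mapt was at -0.09.

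Map1b, known for growing axons, was at 757 and 2102 units in TRAP, against 642 and 625 in input (log2 fold change 0.99 ± 0.68, limma adjusted p = 0.318). TRAP replicate 4 alone stood far above input, and without TRAP replicate 2 Map1b passed (log2 fold change 1.73, adjusted p = 0.0146) in a fit whose spread comes from the input arrays alone. Map6, which stabilizes microtubules in the cold, was at 542 and 733 units in TRAP, against 246 and 390 in input (log2 fold change 1.03, adjusted p = 0.132). Map4, a form made in many cell types, was at 6758 and 7854 units in TRAP, against 4860 and 2773 in input (log2 fold change 0.99, adjusted p = 0.151), and Map1a, of mature dendrites, was at 456 and 600 in TRAP, against 308 and 579 in input (log2 fold change 0.31, or -0.10 after centring, adjusted p = 0.607).

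Stathmins bind tubulin dimers and promote the shrinkage of microtubules, and 2 of the 4 rose, Stmn1 with a direction that turned under both other scalings. Stmn3 was at 52794 units on both TRAP arrays, against 32674 and 34675 in input, a measured log2 fold change of 0.65 (limma adjusted p = 0.00691). The identical TRAP values are close to the highest of these arrays (54823 and 54801 units). The TRAP spread is therefore not measured here, and the size of the rise is uncertain. This probe set is of the kind whose probes can match several related transcripts. The other Stmn3 probe set was at 10595 and 14459 units in TRAP, against 6406 and 8275 in input. It did not pass (log2 fold change 0.77 ± 0.27, limma adjusted p = 0.127). Stmn1 was at 26806 and 25665 units in TRAP, against 20669 and 21274 in input, and rose 1.25-fold (log2 fold change 0.32 ± 0.03, limma adjusted p = 0.020), a direction that turned to -0.09 after centring and -0.11 after quantile normalization. Stmn1 missed the threshold with any 1 array left out (adjusted p from 0.0805 to 0.109), and Stmn3 without TRAP replicate 2 (0.0889) or TRAP replicate 4 (0.0905) and after centring (0.108).

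Stmn2, a stathmin of axon growth and regeneration, was at 6137 and 8347 units in TRAP, against 2578 and 719 in input. Both TRAP arrays were clear of input, yet the input arrays differed more than 2-fold and the log2 fold change of 2.39 missed the threshold (± 0.88, limma adjusted p = 0.136). A second probe set of Stmn2 gave 4642 and 7387 units in TRAP, against 853 and 1727 in input (log2 fold change 2.27, adjusted p = 0.0847), here with input replicate 2 the higher. Stmn4 was at 4516 and 3706 units in TRAP, against 3745 and 6006 in input (log2 fold change -0.21, 95% interval -1.51 to 1.09, adjusted p = 0.632).

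All 3 neurofilament genes had a log2 fold change below 0 and 0 passed, also at an unadjusted limma p under 0.05, and Nefm turned to 0.40 without TRAP replicate 4 and to 0.39 without input replicate 1. Nefl, the light subunit on which the filament is built, was at 9565 and 5237 units in TRAP, against 13946 and 11333 in input (log2 fold change -0.83, 95% interval -2.44 to 0.79, adjusted p = 0.222). Nefm, the medium subunit, was at 1834 and 924 units in TRAP, against 1951 and 994 in input (log2 fold change -0.10, 95% interval -2.54 to 2.34, adjusted p = 0.907). Nefh, the heavy subunit of thick axons, was at 2775 and 2334 units in TRAP, against 3641 and 2619 in input (log2 fold change -0.28, 95% interval -1.22 to 0.66, adjusted p = 0.416). Only Nefl had both TRAP arrays below both input arrays, and in all 3 genes TRAP replicate 2 was the higher TRAP array. Input replicate 1 was likewise the higher input array in all 3.

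**Figure D3:**
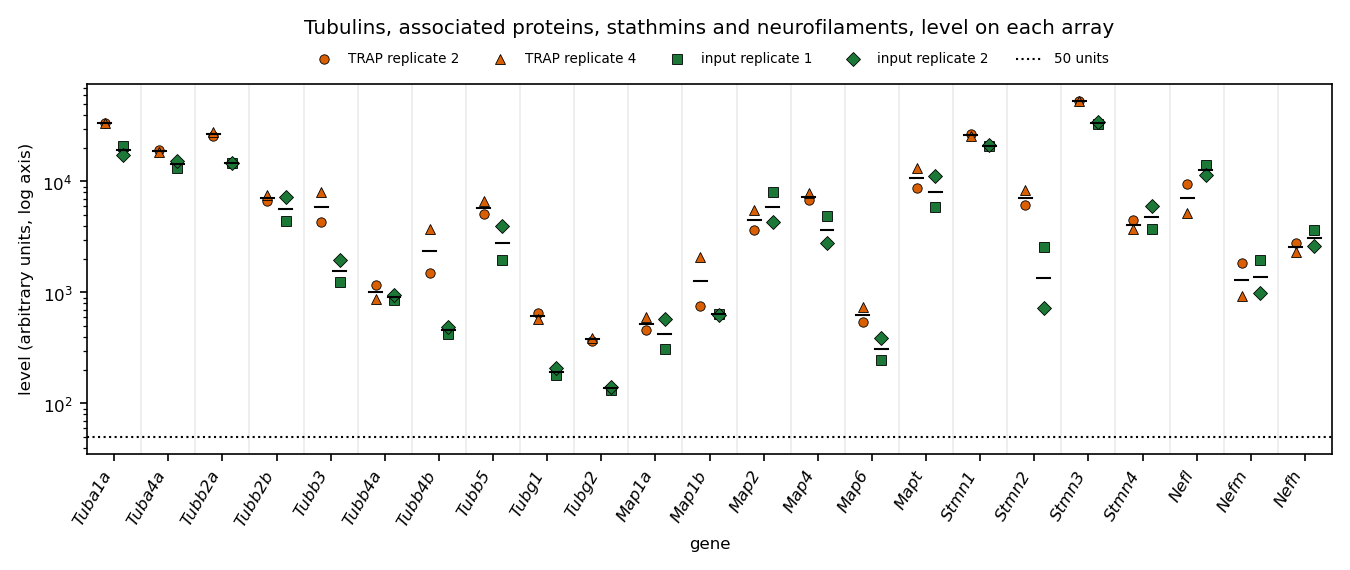
Level in arbitrary expression units (log axis) of 23 tubulin, microtubule-associated, stathmin and neurofilament genes on each TRAP array (left of each gene) and each input array (right), with short lines at the geometric mean of 2 arrays and a dotted line at 50 units. Tubg1 and Tubg2 are well separated between fractions, while Nefm and Mapt overlap.

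The TRAP arrays differed in a way that touches some of these genes. The 63 genes had a median log2 difference of -0.12 for TRAP replicate 2 minus TRAP replicate 4, and 23 of them (36.5%) were higher on replicate 2, against 47.7% of all genes above background. The 3 neurofilament genes ran toward replicate 2 with a median of 0.87, the direction of the oligodendrocyte markers (1.49), GABAergic neuron markers (1.19) and astrocyte markers (0.82). All 6 microtubule-associated protein genes ran toward replicate 4 with a median of -0.51, the direction of the dopamine neuron markers (-0.33). Glial and GABAergic marker RNA thus moved with the neurofilament values across the TRAP arrays, and its part in them was not tested. For input replicate 1 minus input replicate 2 the medians were 0.48 for neurofilaments and 0.30 for GABAergic neuron markers. There the oligodendrocyte markers (-0.14) and astrocyte markers (-0.25) ran the other way. More than a 2-fold difference between the TRAP arrays was seen for 5 genes, namely Map1b, Tubb4b, Kif1a, Kif1c and Tuba8, and between the input arrays for 3, namely Stmn2, Kif16b and Tuba8.

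**Figure D4:**
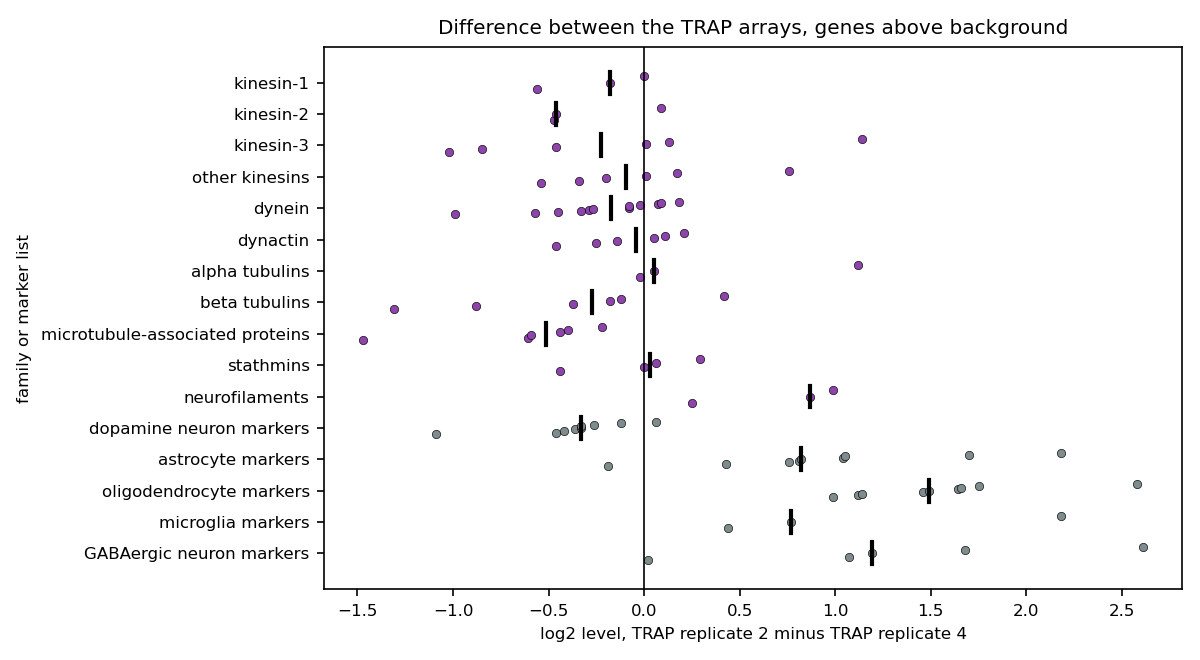
Log2 level on TRAP replicate 2 minus that on TRAP replicate 4 for each gene above background (points) with the median (black bar), by family (purple) and by cell type marker list (grey). Neurofilament genes lie right of 0 with a median of 0.87, on the side of the glial and GABAergic markers, and microtubule-associated proteins lie left of it with a median of -0.51.

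Probe sets of the same gene read different stretches of its transcripts and did not always run together. Of the 63 genes, 29 had at least 2 probe sets above background, and in 23 of them all had the same sign. The 6 others were Klc1, Kif3a, Kif1b, Map1a, Map4 and Kifc2. Map4 was positive on its brightest probe set and negative on the other 2 (-0.64 and -0.29). Map1a had 0.31 on its brightest probe set and -1.04 on the other (174 and 167 units in TRAP, against 311 and 398 in input, limma adjusted p = 0.0411).

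For Kif1b the 5 probe sets ranged from -2.66 to 0.66. The lowest was at 22.5 and 22.1 units in TRAP, against 164 and 121 in input (limma adjusted p = 0.0102), and the highest at 121 and 131 in TRAP, against 79.2 and 79.9 in input (adjusted p = 0.0114). Probe sets of Kif1b thus passed in both directions.

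In some genes a dimmer probe set differed more between fractions than the brightest one. Stmn1 had a second probe set at 1543 and 1760 units in TRAP, against 404 and 432 in input (log2 fold change 1.98, limma adjusted p = 0.00471). Dynll2 had one at 3401 and 3537 in TRAP, against 1127 and 835 in input (log2 fold change 1.84, adjusted p = 0.0207). Dctn6 had one at 974 and 1123 in TRAP, against 351 and 253 in input (log2 fold change 1.81, adjusted p = 0.0288). Dynll1 had one at 1017 and 848 in TRAP, against 302 and 409 in input (log2 fold change 1.40, limma adjusted p = 0.0441). Dimmer probe sets of Dync1li2, Dynlt3 and Map6, given above, also passed. Each of these genes had a smaller fold change on its brightest probe set. When all probe sets of a gene were averaged, Klc1 (adjusted p = 0.320), Tubb2a (0.297), Kif3b (0.391), Kif13a (0.0561), Kif13b (0.0572) and Stmn3 (0.0672) missed the threshold. The same averaging gained Dctn6 (0.0475), Dynll1 (0.0383), Dynll2 (0.0390), Map6 (0.0443) and Stmn2 (0.0357) as rises and Kif1b (-1.49, adjusted p = 0.00427) and Kif5a (0.0453) as falls. Only 49 genes were above background on the averaged values. Of these 14 rose (28.6%, against 21.0% of all genes above background) and 3 fell (6.12%, against 5.21%). The averages include dim probe sets, since only 1 of the 4 of Kif13b and 5 of the 7 of Kif1b were above background.

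**Figure D5:**
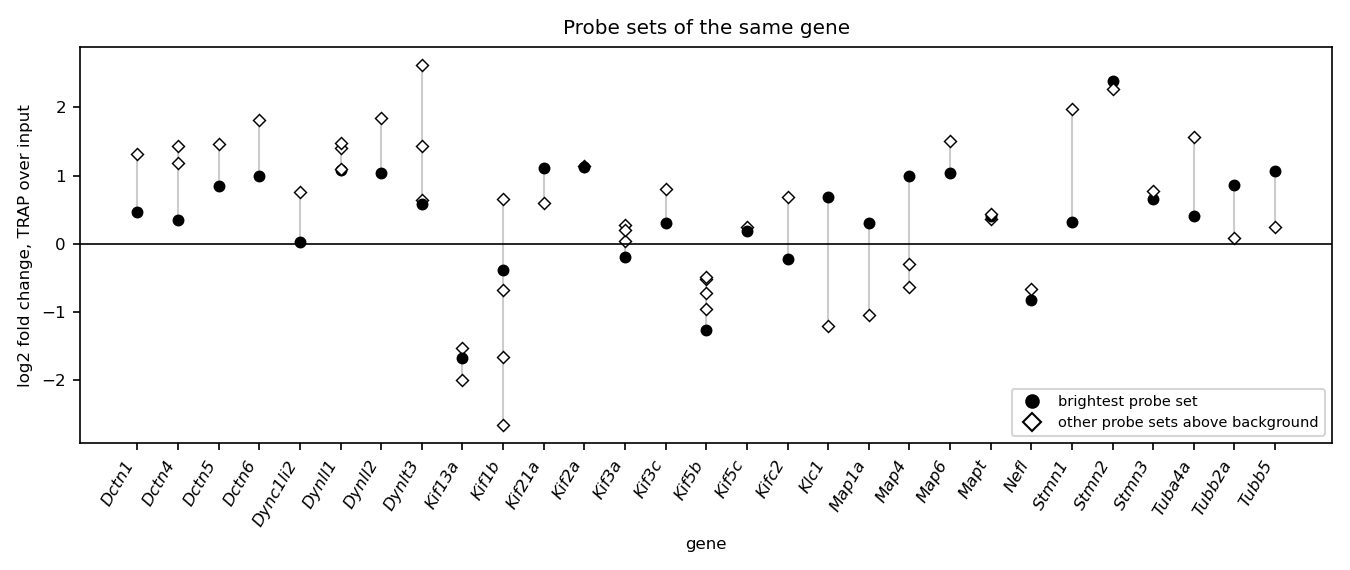
TRAP over input as log2 fold change for every probe set above background of the 29 genes that have at least 2 of them, with the brightest as a filled circle and the others as open diamonds. Kif1b ranges from -2.66 to 0.66, and all probe sets of Kif5b and Kif13a lie below 0.

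Genes that work with these proteins but were not among the 91 rose about as often as all genes above background. Of 25 motor adaptors and regulators above background, 4 rose (16.0%, against 17.7% of all genes above background) and 0 fell (0 also at an unadjusted limma p under 0.05), with a median log2 fold change of 0.41, against 0.44 for all genes. The 4 were Capzb, which caps the dynactin filament (1.05, limma adjusted p = 0.0295), Rilp, a dynein adaptor of late endosomes (1.02, adjusted p = 0.0413), Rhot2, which links motors to mitochondria (0.88, adjusted p = 0.0276), and Mapk8ip2, a kinesin-1 scaffold (0.36, adjusted p = 0.0396). Of 38 microtubule regulators, 6 rose (15.8%, again near the 17.7% of all genes) and 0 fell (0 also at an unadjusted p), with a median of 0.55. Tbcc, a tubulin folding cofactor, had the highest value among these 6 (2.17, adjusted p = 0.0225), and Tubgcp2, a partner of gamma tubulin in the nucleating complex, was at 88.9 and 116 units in TRAP, with both input arrays below background at 25.5 and 24.8 (adjusted p = 0.014). Of 4 other intermediate filament genes above background, 0 passed (0 also at an unadjusted p), among them Ina, the neuronal filament protein that joins the neurofilament triplet, at 7722 and 5868 units in TRAP, against 4948 and 4857 in input (log2 fold change 0.46, adjusted p = 0.156).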

How the data were processed

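The authors hybridized amplified RNA to Affymetrix Mouse 430 2.0 arrays and processed them with GCRMA (version not given in the sources used here), and deposited 1 log2 value per probe set and array. GCRMA background correction leaves dim probe sets at a common floor, so small differences there carry no information. No further normalization was applied. The difference of TRAP and input was fitted in limma 3.58.1 under R 4.3.3 (1 coefficient, all 4 arrays, empirical Bayes with 0.317 prior and 2 residual degrees of freedom, 2-sided), with Benjamini-Hochberg adjustment over 45037 probe sets (64 control probe sets left out of 45101) and a threshold of 0.05. Identical values within both fractions occurred in 15551 probe sets and feed the variance prior. The platform annotation gave 34945 probe sets 1 symbol, 932 several and 9160 none. The 91 genes have 206 probe sets, and all 91 matched RefSeq (GRCm38.p6) by gene identifier, with 0 symbols changed. Above background, 12 genes were read on probe sets of the s or x type, whose probes can match related transcripts. Where both arrays of a fraction were under 50 units, the fold is a bound against 50 units. Intervals are 95%. The fit was tested on simulated data. Alternatives were the scaling, a floor at 50 units, the probe sets fitted, a variance trend, control probe sets, the choice of probe set, the background rule and each array left out. Named genes were, per family, up to 6 that passed and then the brightest up to 3, plus well-known genes; Kif1c, Kif2a, Kif16b, Kif17, Map1a, Map6, Tubb4a, Tubb4b, Kif26a, Tubb6, the remaining dynein and dynactin genes, Mapk8ip2 and the second probe sets were added after their values were seen. The members and lists were chosen with earlier results of these data known. No sequences are printed. The number of arrays limits the precision.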

Additional observations from a re-analysis of the deposited data

How the results depend on the processing

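The count of genes that rose was 15 and of genes that fell 3. With values under 50 units raised to 50 there were 7 rises (11.1%, against 4.0% of all genes above background). Falls numbered 5 with quantile normalization (7.94%, against 8.93%) and 8 with arrays centred on bright probe sets (12.7%, against 19.5%). They numbered 5 in a fit of probe sets above background alone (7.94%, against 6.95%) and 6 with an intensity trend (9.52%, against 7.98%). With no filter on low values there were 13 (14.3%, against 19.0%), and 17 of the 28 genes below background are then called at the floor. Leaving out 1 array gave a median log2 fold change of 0.50 to 0.65. The median of 0.59 became 0.20 with quantile normalization, 0.18 with centring and 0.28 with no filter, and the median of all genes above background shifted by -0.39 and -0.41 under the 2 scalings. Of the 18 calls, 14 were kept after quantile normalization, 13 after centring, 9 with values raised to 50 and 11 in the fit above background. Of 789 values for 66 genes (the 63 above background and 3 below it) under 12 settings, 619 kept direction and side of the threshold, 71 lost the threshold, 48 gained it and 51 turned sign, in 23 genes of which 1, Stmn1, had passed.
After quantile normalization, Stmn1 was at -0.11, Tuba4a at -0.08, Tubb2b at -0.21, Kif5c at -0.30, Mapt at -0.09, Kif3c at -0.23, Kif22 at -0.32, Dctn1 at -0.06, Dctn4 at -0.17, Dync1li2 at -0.50, Tubb4a at -0.31 and Map1a at -0.09. After centring, Stmn1 was at -0.09, Klc3 at -0.32, Tuba4a at -0.01, Tuba8 at -0.20, Tubb2b at -0.08, Kif5c at -0.23, Kif3c at -0.10, Kif22 at -0.29, Kifc1 at -0.34, Dctn4 at -0.06, Dync1li2 at -0.39, Tubb4a at -0.27 and Map1a at -0.10. When all probe sets of a gene were averaged, Map4 was at -0.14, Kifc2 at 0.22, Kif3a at 0.08, Kif22 at -0.29, Map1a at -0.37 and Kif16b at -0.08.
With 1 array left out, log2 fold changes ran from -0.55 to 0.13 for Stmn4, -0.37 to 0.54 for Klc3, -0.36 to 0.77 for Tuba8, -0.03 to 0.69 for Tubb2b, -0.59 to 0.40 for Nefm, -0.06 to 0.88 for Mapt, -0.84 to 0.04 for Map2, -0.81 to 0.04 for Kif1b, -0.54 to 0.08 for Kifc2, -0.42 to 0.04 for Kif3a, -0.05 to 0.29 for Kif22, -0.02 to 0.16 for Kifc1, -0.27 to 0.30 for Dync1li2, -0.07 to 0.35 for Tubb4a and -0.15 to 0.77 for Map1a.
The cause of these changes was not tested, apart from the shift of all genes that both scalings remove. No paired analysis was possible because the TRAP arrays are numbered 2 and 4 and the input arrays 1 and 2, so that only 1 number is shared.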

Other observations

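Some tubulin and dynein light chain genes share their probe sets with a near-identical gene or pseudogene and were left out of the counts, since 11 probe sets list several symbols. The brightest, shared by Tuba1b, a widely made alpha tubulin, and Gm5620, was at 38089 and 36263 units in TRAP, against 32142 and 30394 in input (log2 fold change 0.25 ± 0.05, standard error, limma adjusted p = 0.0587). A probe set shared by the 4 Dynlt1 copies Dynlt1a, Dynlt1b, Dynlt1c and Dynlt1f was at 1183 and 1105 units in TRAP, against 664 and 707 in input, and rose by a log2 fold change of 0.74 (adjusted p = 0.0126 from limma). Another probe set of the same 4 copies was at 311 and 305 units in TRAP, against 85.7 and 93.8 in input, and rose by 1.78 (adjusted p = 0.00228 from limma). Both ran in the direction of the probe set listed for Dynlt1f alone, whereas a probe set shared by Dynlt1a, Dynlt1c and Dynlt1f, below background on all 4 arrays, was at 5.59 units on each TRAP array, against 27.2 units on each input array.

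Below background, Kif26a, a relative of Kif26b, was at 5.78 and 5.57 units in TRAP, against 39.5 and 39.5 in input. Tubb6 was at 24.1 and 28.4 units in TRAP, against 25.2 units on each input array, and Klc3, the light chain gene just under the limit, at 60.3 and 31.9 in TRAP, against 36.9 and 46.4 in input.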
